A study of Mus musculus with 1989 samples.

Results

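Molecular chaperones bind proteins that are not yet folded, or that have come unfolded, and help them reach their shape. The genes described here are the 56 rows of a single-cell expression table of the mouse thymus whose symbols start with Hsp, with Dnaj, or with Cct and a digit, out of 8846 genes in all. By role they fell into 7 subunits of the CCT ring, 2 cytosolic Hsp90 genes, 5 cytosolic Hsp70 and Hsp110 genes, 6 genes grouped as mitochondrial, 8 grouped as of the endoplasmic reticulum, 24 other J-proteins and 2 small heat shock genes. The other J-proteins are mostly of the cytosol and nucleus, but they also hold, among others, Dnajc11 and Dnajc30 of mitochondria and Dnajb12 and Dnajb14 of the endoplasmic reticulum membrane, and the sums for those compartments leave these out. The remaining 2 genes, Hspbap1 and Hspbp1, carry the prefix but encode proteins that bind heat shock proteins, and they are counted apart. Hspa1a, Hspa1b, Hspb1 and other inducible genes that the prefixes would take were not analysed here.

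The chaperone families work in relays. J-proteins bring a client to an Hsp70 and make it split ATP, Hsp110 proteins reload the Hsp70 with ATP, and Hsp90 receives kinases and hormone receptors from it at a later step of folding. CCT is a double ring in which actin and tubulin fold. Inside mitochondria the Hsp60 chamber Hspd1 closes with its lid Hspe1, and the endoplasmic reticulum has its own Hsp70, Hspa5, and its own Hsp90, Hsp90b1. Thymocytes divide rapidly after a first T-cell receptor chain has passed its test, then stop dividing, rearrange the other chain and are selected.

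The study profiled thymus cells of mice by droplet single-cell RNA sequencing of transcript 3′ ends to follow the double-positive (CD4+CD8+) stages. The sample was 1 library from male C57BL/6 mice labelled 7 weeks old, with no treatment and no genetic change named. The labels do not say how many mice gave the cells, so nothing here measures the spread between animals. With 1 library no test between conditions was possible, and every interval printed covers counting error only.

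The table held 1993 cells, and 79.7% of its values were 0. It gives normalized log2 values in place of counts, and in each cell these fall on a ladder of distinct values. The rank of a value on its cell's ladder, called a step, took the place of the count. A cell's steps summed to a median of 2558 and to at most 22539, no cell had under 1300, and 7 cells held more than 4500 detected genes. Because a deep cell shows more genes, every cell was thinned at random to 1300 steps before shares and levels were taken. Levels are not compared between genes, since the table gives no value per transcript length.

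Cells were clustered without the chaperone genes, and the 16 clusters were assigned to stages by marker genes. The stages carry the study's names: double-negative progenitors (DN), immature single-positive cells (ISP), dividing double-positive blasts (DPbla), rearranging (DPre) and selected (DPsel) double-positive cells, and CD4 and CD8 single-positive cells (CD4sp, CD8sp). The DN-like class held 78 cells, the ISP-like 192, the DPbla-like 533, the DPre-like 424, the DPsel-like 162, the CD4sp-like 226 and the CD8sp-like 150. A further 31 cells were NCL-like (nonconventional lymphocytes) and 36 APC-like (antigen-presenting cells). Cluster 5, with 161 cells, stayed unnamed, because its leading genes held 3 CD4sp markers but only 1 marker of DPsel, its best-scoring class.

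Most markers followed these names after thinning, but those of the DPsel-like and CD4sp-like classes did so only in part. Il2ra, the CD25 chain of early progenitors, was found in 61.5% of the DN-like cells and Myc in 22.4% of the ISP-like cells. The proliferation gene Mki67 was found in 43.0% of the DPbla-like cells and the recombinase Rag1 in 76.4% of the DPre-like cells. Cd8a was found in 65.3% of the CD8sp-like and 34.5% of the CD4sp-like cells, so these classes overlap in that marker. Itm2a, the DPsel marker, was found in 46.9% of the DPsel-like cells, but also in 37.6% of the CD4sp-like cells and in 83.9% of the unnamed cluster. Cd4 was found in 38.9% of the CD4sp-like and 54.7% of the DPre-like cells, and Ccr7 of mature thymocytes in 38.9% of the CD4sp-like and 28.7% of the CD8sp-like cells. H2-Aa, a class II gene of antigen-presenting cells, was found in 83.3% of the APC-like cells and in 5.13% to 9.91% of the cells of the 7 thymocyte classes. Cd74, another such gene, was found in 97.2% of the APC-like cells and in 5.21% to 20.4% of those of the thymocyte classes, least in the ISP-like and most in the CD4sp-like class. Free RNA in droplets can give such shares. Chaperone shares of up to 20.4%, called the background range, are therefore given as values and not read as expression. Of 10 markers of red cells, thymic epithelium and mesenchyme 4 were in the table, Hbb-bs, Epcam, Krt8 and Psmb11, with none of mesenchyme. Their summed level was 0.0531 to 0.269 steps per cell over the 9 named classes. The high value was that of DN-like cells and came mostly from Epcam, at 0.205 steps.

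Depth differed strongly between the classes. ISP-like cells had the highest median, 9511 steps, against 3633 in the DN-like, 4839 in the DPbla-like and 1888 to 2413 in the 4 later thymocyte classes. Only 10 ISP-like cells had between 2000 and 3500 steps, against 32 DN-like, 77 DPbla-like and 180 DPre-like cells. Values from this narrow range of depth are given for part of the genes, with wide intervals.

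Genes found in at least 5% of cells after thinning, as the mean of the 7 thymocyte classes, entered the comparisons of neighboring classes, and 39 of the 56 chaperone genes passed this filter. They were all 7 CCT subunits, both Hsp90 genes, 4 of 5 cytosolic Hsp70 and Hsp110 genes, 14 of the 24 other J-proteins, 5 of 6 mitochondrial and 6 of 8 endoplasmic reticulum genes, and 1 small heat shock gene. The 17 genes under the filter, among them Dnaja3, Dnajb9, Dnajb12, Hspa13, Hspb6 and both binding proteins, lay between 0 and 10.3% in every thymocyte class. Hsph1, the inducible Hsp110, was one of them and was found in 0.563% of the DPbla-like and 3.33% of the CD8sp-like cells. Unthinned, the 56 genes ranged from Dnajc27, in 2.76% of all cells, to Hsp90ab1, in 94.2%.

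Promoter sequences are shown first, for the elements through which chaperone genes are known to be controlled. Promoter windows from 250 bases before to 50 bases after a transcription start, from RefSeq on GRCm38.p6, were matched for 44 of the 56 genes, in 58 windows. Heat shock factors bind repeats of GAA and TTC, and 3 alternating units, GAANNTTCNNGAA read on either strand, were present in 6 of the 58 windows (10.3%), against 0.513% of the 8769 windows of genes in the table. By gene these were 4 of 44 (9.09%), Hspd1, Hspe1, Dnajb6 and Hsph1, against 0.566% of the genes in the table. The 6 windows hold 3 distinct stretches, since Dnajb6 and Hsph1 each have a pair of overlapping windows with the same match. Hspd1 lies on the opposite strand to Hspe1 and its gene model overlaps the Hspe1 start. The first stretch lies within that model, upstream of 1 of the Hspd1 starts with a window, and is the match in that window and in the Hspe1 window. Each stretch is written 5′ to 3′ on the strand of the gene named, with the matched letters in capitals.
Hspe1: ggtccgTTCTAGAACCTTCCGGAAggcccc
Dnajb6: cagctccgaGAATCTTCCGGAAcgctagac
Hsph1: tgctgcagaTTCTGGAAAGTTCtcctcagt
The Hspe1 stretch is chr1:55088053-55088082 on the plus strand, with its match 89 to 72 bases before the Hspe1 start, and it overlaps an exon of an alternative Hspd1 transcript. The Dnajb6 stretch is chr5:29735843-29735872 on the plus strand, 46 to 34 bases before the start. The Hsph1 stretch is chr5:149636280-149636309 on the minus strand, with its match 15 to 27 bases after a Hsph1 start and 36 to 48 bases after another.

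The endoplasmic reticulum stress element, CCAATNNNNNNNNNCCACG on either strand, is the site through which unfolded protein in that compartment is known to raise its chaperones. It was present in 3 of the 58 windows (5.17%), against 0.148% of the windows of genes in the table. These windows belonged to Hspa5, Hsp90b1 and Dnajc3, 3 of the 8 members placed in the endoplasmic reticulum by role. Capitals again mark the matches, of which Hsp90b1 has 2.
Hspa5: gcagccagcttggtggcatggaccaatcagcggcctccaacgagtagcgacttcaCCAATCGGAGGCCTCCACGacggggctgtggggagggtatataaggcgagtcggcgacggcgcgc
Hsp90b1: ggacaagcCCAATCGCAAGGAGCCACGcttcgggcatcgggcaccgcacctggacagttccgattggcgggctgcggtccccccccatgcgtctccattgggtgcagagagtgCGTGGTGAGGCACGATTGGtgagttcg
Dnajc3: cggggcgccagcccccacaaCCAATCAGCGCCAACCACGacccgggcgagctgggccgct
The Hspa5 stretch is chr2:34771970-34772089 on the plus strand, with its match 65 to 47 bases before the start. The Hsp90b1 stretch is chr10:86705525-86705664 on the minus strand, with both matches upstream of the start and the nearer one ending 89 bases before it. The Dnajc3 stretch is chr14:118937807-118937866 on the plus strand, with its match 105 to 87 bases before the start.

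A shorter heat shock motif of 2 units, GAANNTTC or TTCNNGAA, was in 14 windows (24.1%) against 11.9% of the windows of genes in the table. Every window with 3 units also holds this shorter motif. It added Cct2, Cct5, Cct6a, Dnaja1, Dnajb4, Dnajc10, Dnajc27 and Hspb6 to the genes named. The E-box CACGTG, which Myc and related factors bind, was in 7 windows (12.1%) against 10.5%, close to the background. A match of letters is a description of the sequence, and binding was not measured here.

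Cytosolic Hsp90 was highest in the ISP-like cluster. Hsp90ab1, the constitutive form, was found in 92.3% (84.0 to 97.1) of the DN-like and 95.8% (92.0 to 98.2) of the ISP-like cells. It was found in 79.4% of the DPbla-like, 74.1% of the DPre-like, 83.3% of the DPsel-like, 80.5% of the CD4sp-like and 92.7% of the CD8sp-like cells. Where a gene is found in nearly every cell the share saturates, and the mean level says more. That level was 3.29 steps per DN-like cell, 4.17 in the ISP-like, 1.95 in the DPbla-like, 1.43 in the DPre-like, 1.86 in the DPsel-like, 1.93 in the CD4sp-like and 2.32 in the CD8sp-like cells.

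Hsp90aa1, the form that heat and other stress induce, varied more between the classes. It was found in 35.9% (25.3 to 47.6) of the DN-like, 82.8% (76.7 to 87.9) of the ISP-like, 55.5% (51.2 to 59.8) of the DPbla-like and 28.1% (23.8 to 32.6) of the DPre-like cells. Later shares were 42.0% in the DPsel-like, 35.0% in the CD4sp-like and 32.7% in the CD8sp-like cells. The ISP-like interval overlapped that of no other thymocyte class. Within cells of 2000 to 3500 steps the ISP-like share was again the highest of the first 4 classes, with 37.5% of 32 DN-like cells, 70.0% (34.8 to 93.3) of 10 ISP-like cells, 36.4% of 77 DPbla-like cells and 27.8% of 180 DPre-like cells. In that subset the ISP-like interval overlapped those of the other 3 classes.

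Together the Hsp90 pair summed to 3.76 ± 2.52 steps per DN-like cell (SD over 78 cells), 5.95 ± 2.88 in the ISP-like and 2.86 ± 2.03 in the DPbla-like cells, and reached a low of 1.79 ± 1.47 in the DPre-like cells. Cells of one class thus spread widely. The ISP-like level was 1.58 (1.39 to 1.81) times the DN-like level and the DPbla-like level 0.481 (0.445 to 0.520) times the ISP-like one, where parentheses give the 95% interval. From DPre-like to DPsel-like cells the ratio of the sums was 1.35.

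**Figure D1:**
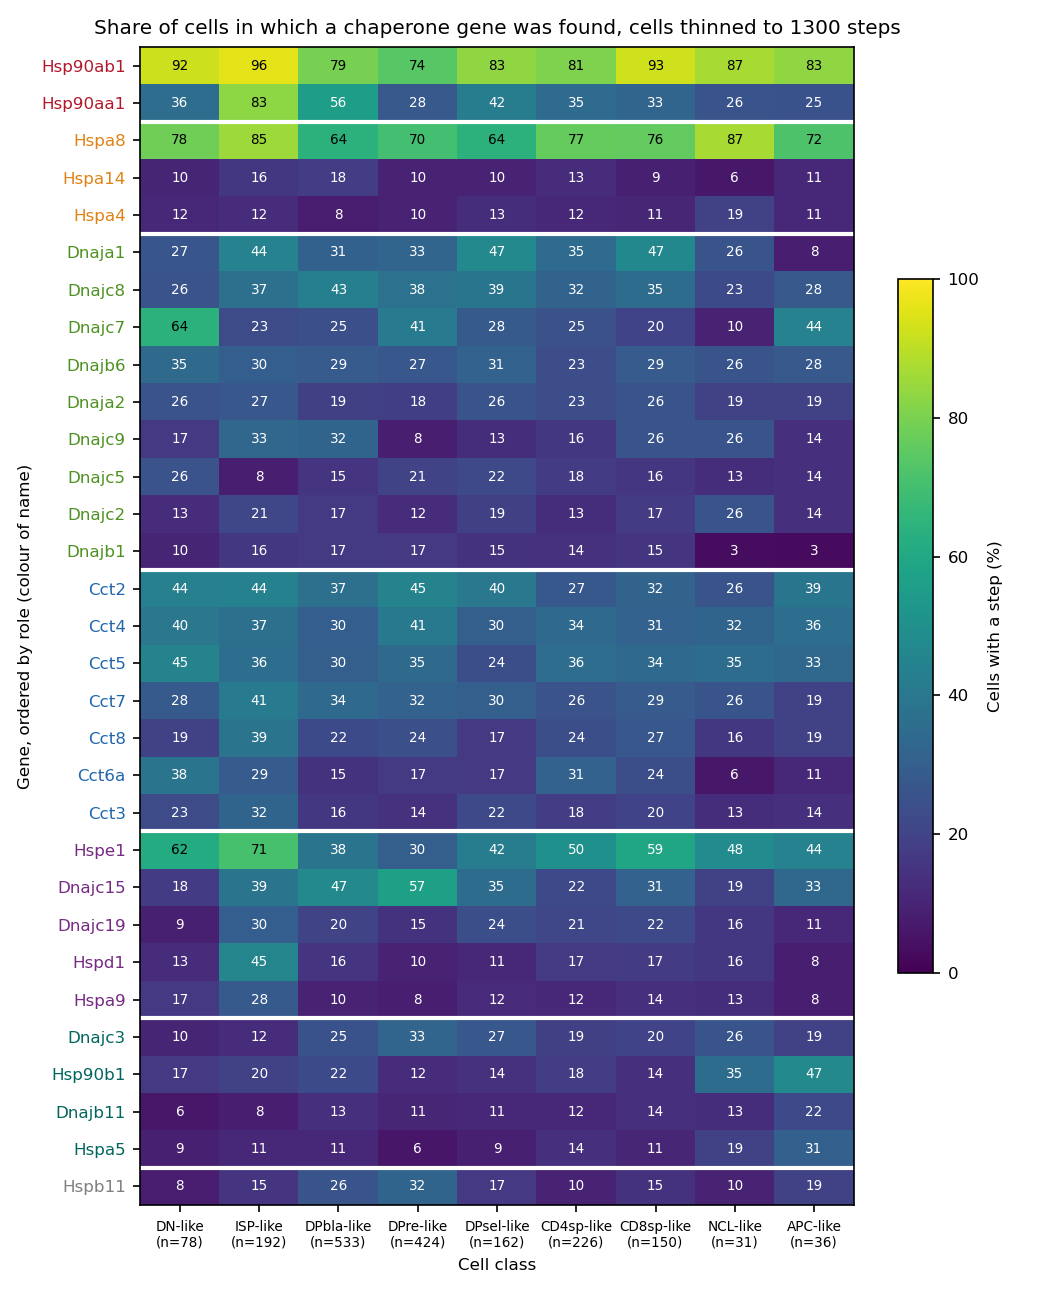
Share of cells (percent, color) in which each chaperone gene was found after thinning to 1300 steps, for the named genes (vertical axis, ordered and colored by role) in the classes (horizontal axis). Hsp90aa1 and Hspd1 stand out in the ISP-like column, at 82.8% and 45.3%.

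Among the cytosolic Hsp70 genes, Hspa8, the constitutive member that handles most new clients, was found in 64.2% to 85.4% of the cells of every thymocyte class. Its level was 1.63 steps per DN-like, 1.85 per ISP-like, 1.14 per DPbla-like, 1.49 per DPre-like, 1.07 per DPsel-like, 1.62 per CD4sp-like and 1.67 per CD8sp-like cell. DPbla-like and DPsel-like cells thus had the lowest levels. Among cells of 2000 to 3500 steps, however, Hspa8 was found in 76.6% (65.6 to 85.5) of the DPbla-like, 67.8% of the DPre-like, 62.7% of the DPsel-like and 76.7% of the CD8sp-like cells, so the DPbla-like class was not low there. The DPbla-like level was 1.63-fold (1.42 to 1.86) lower than the ISP-like one, and the single-positive level was 1.54-fold (1.3 to 1.83) higher than the DPsel-like one.

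Hspa4l, an Hsp110 protein that exchanges nucleotide on Hsp70, was found most often in DPsel-like cells. It was found in 26.5% (19.9 to 34.0) of the DPsel-like cells, against 7.69% of the DN-like, 3.12% of the ISP-like, 6.19% of the DPbla-like, 9.67% (7.03 to 12.9) of the DPre-like, 5.75% (3.10 to 9.64) of the CD4sp-like and 4.00% of the CD8sp-like cells. Outside DPsel-like cells these shares lie in or below the background range. The unnamed cluster 5, whose best score was also for DPsel, held it in 4.97% (2.17 to 9.56) of its cells. Its level was 3.39-fold (2.25 to 5.14) higher in DPsel-like than in DPre-like cells, and 6.96-fold (4.08 to 12.4) lower in single-positive than in DPsel-like cells. With cluster 5 put in the DPsel-like class these differences were 0.96 and -1.99 on the log2 scale, against 1.76 and -2.80 without it. The other Hsp110 gene that passed the filter, Hspa4, lay between 8.07% and 13.0% in every thymocyte class, and Hspa14, an Hsp70 that works at the ribosome with Dnajc2, between 8.67% and 18.2%, both within the background range.

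**Figure D2:**
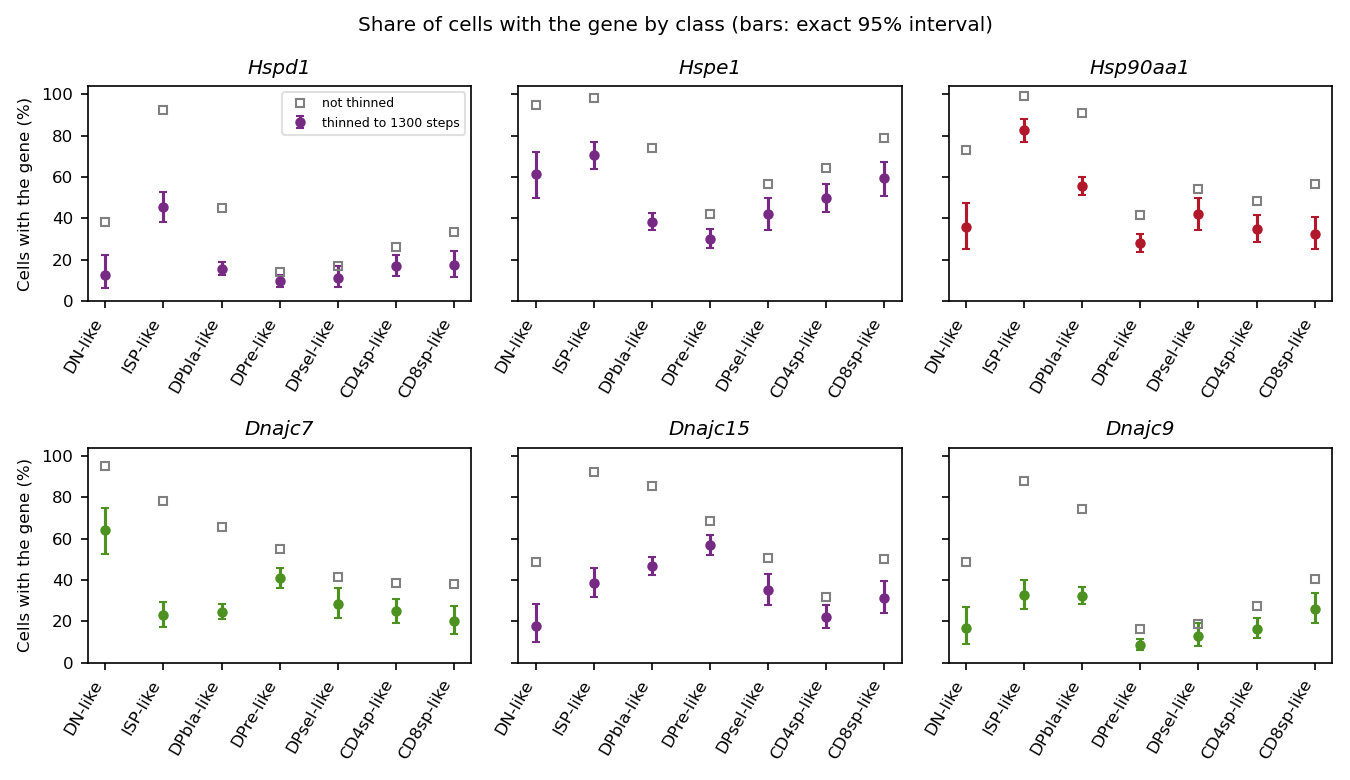
Share of cells with the gene (percent) for 6 chaperone genes in the 7 thymocyte classes, with points for the class and bars for the exact binomial 95% interval. Each gene has its own order of classes: the Hsp90aa1 share reaches 82.8% in the ISP-like cells and the Dnajc7 share 64.1% in the DN-like cells.

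J-proteins did not share 1 pattern. Dnajc7, which binds both Hsp70 and Hsp90 through its TPR repeats, was found in 64.1% (52.4 to 74.7) of the DN-like cells and 22.9% (17.2 to 29.5) of the ISP-like cells. It was found in 24.6% of the DPbla-like, 40.8% (36.1 to 45.6) of the DPre-like, 28.4% of the DPsel-like, 24.8% of the CD4sp-like and 20.0% of the CD8sp-like cells. It was also found in 44.4% of the APC-like cells. This gene was thus highest in DN-like cells and had a lesser high point in DPre-like cells. In cells of 2000 to 3500 steps it was found in 71.9% of the DN-like, 20.0% (2.52 to 55.6) of the ISP-like, 39.0% (28.0 to 50.8) of the DPbla-like and 42.2% (34.9 to 49.8) of the DPre-like cells, so the DPre-like share hardly exceeded the DPbla-like one there. Epcam was also found most often in DN-like cells, in 15.4% against at most 6.45% in any other class, while Hbb-bs, Krt8 and Psmb11 were not highest there. The part of these cells in the Dnajc7 value was not tested.

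Dnajc9, a chaperone of histones H3 and H4, was found most often in ISP-like and DPbla-like cells and least often in DPre-like cells. It was found in 16.7% of the DN-like, 32.8% (26.2 to 39.9) of the ISP-like, 32.3% (28.3 to 36.4) of the DPbla-like and 8.49% (6.02 to 11.6) of the DPre-like cells. Later shares were 13.0% in the DPsel-like, 16.4% in the CD4sp-like and 26.0% in the CD8sp-like cells. The level was 4.46-fold (3.15 to 6.47) lower in DPre-like than in DPbla-like cells, the largest difference of any chaperone gene at that step.

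The general J-proteins of the cytosol varied less. Dnaja1, the main J-partner of Hspa8, was found in 26.9% of the DN-like, 44.3% of the ISP-like, 31.1% of the DPbla-like, 32.8% of the DPre-like, 46.9% of the DPsel-like, 35.0% of the CD4sp-like and 46.7% of the CD8sp-like cells. Dnaja2 lay between 18.4% and 27.1%, Dnajb6, which keeps proteins from aggregating, between 23.5% and 34.6%, and Dnajb1, the heat-inducible J-protein, between 10.3% and 17.1%. Dnajb1 thus stayed within the background range in thymocytes, and it was found in 3.23% of the NCL-like and 2.78% of the APC-like cells. Dnajc2, which works at the ribosome, lay between 12.5% and 21.4%, and Dnajc8, a part of the splicing machinery, between 25.6% and 43.3%. Dnajc5, the cysteine string protein of secretory vesicles, was found in 25.6% (16.4 to 36.8) of the DN-like, 8.33% (4.84 to 13.2) of the ISP-like and 15.4% to 22.2% of later thymocytes. Among cells of 2000 to 3500 steps Dnajc5 was found in 46.9% (29.1 to 65.3) of the DN-like and in 0 of the 10 ISP-like cells, where Dnajb6 was likewise found in 0, for which the exact binomial upper limit is 30.8%.

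The 24 other J-proteins summed to 4.00 steps per DN-like cell and to between 2.97 and 3.70 in the other thymocyte classes. With the 8 J-domain genes of the mitochondrial and endoplasmic reticulum groups added, the sum was 4.64 steps in the ISP-like and 4.82 in the DPbla-like cells, a ratio of 1.04. The J-domain sum thus stayed close to level across a step at which the Hsp90 sum was 0.481 times as high, although the ratio was 1.24 in cells of 2000 to 3500 steps.

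The CCT subunits, which act in 1 complex in equal numbers, did not follow 1 order of classes. The sum over the 7 genes was 2.86 steps per DN-like, 3.29 per ISP-like, 2.22 per DPbla-like, 2.57 per DPre-like, 2.18 per DPsel-like, 2.47 per CD4sp-like and 2.35 per CD8sp-like cell. The DPbla-like level was 0.674 (0.612 to 0.744) times the ISP-like one. The sum hides differences between the subunits. Cct8 was found in 19.2% (11.2 to 29.7) of the DN-like, 38.5% (31.6 to 45.8) of the ISP-like and 22.3% (18.9 to 26.1) of the DPbla-like cells, and Cct3 in 23.1%, 32.3% and 16.1%. Cct6a was instead found in 38.5% of the DN-like, 29.2% of the ISP-like, 14.6% of the DPbla-like, 17.0% of the DPre-like, 16.7% of the DPsel-like, 31.4% of the CD4sp-like and 24.0% of the CD8sp-like cells. Its shares in the 3 double-positive classes were the lowest and lay within the background range. In cells of 2000 to 3500 steps Cct6a was found in 23.3% of the DPre-like and 20.9% of the CD8sp-like cells, so the DPre-like share was not the lower one there. Cct2, Cct4, Cct5 and Cct7 ranged from 24.1% to 44.9% over the 7 classes. Cct5 was found in 44.9% of the DN-like and 35.9% of the ISP-like cells, but in cells of 2000 to 3500 steps this order turned, with 21.9% (9.28 to 40.0) and 70.0% (34.8 to 93.3). Cct7 was found there in 18.8% and 60.0%, against 28.2% and 41.1% over all cells of these classes. Tcp1, the ring's first subunit, whose symbol the rule does not take, was found in 44.8% of the ISP-like cells and was 1.76-fold lower in DPre-like than in DPbla-like cells.

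In mitochondria the Hsp60 chamber stood out in ISP-like cells. Hspd1 was found in 12.8% (6.32 to 22.3) of the DN-like, 45.3% (38.1 to 52.6) of the ISP-like, 15.6% (12.6 to 18.9) of the DPbla-like and 9.67% of the DPre-like cells. Later shares were 11.1% in the DPsel-like, 16.8% in the CD4sp-like and 17.3% in the CD8sp-like cells. The ISP-like interval stood clear of all other thymocyte classes. Without thinning the first 4 shares were 38.5%, 92.2%, 44.8% and 14.2%. In cells of 2000 to 3500 steps they were 12.5%, 40.0% (12.2 to 73.8), 11.7% and 11.1%, and there the ISP-like interval overlapped the other 3. Outside ISP-like cells the thinned shares lay within the background range.

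Its lid Hspe1, the neighbor on the opposite strand of chromosome 1, was found in 61.5% of the DN-like, 70.8% (63.9 to 77.2) of the ISP-like, 38.5% (34.3 to 42.7) of the DPbla-like, 30.2% of the DPre-like, 42.0% of the DPsel-like, 50.0% of the CD4sp-like and 59.3% of the CD8sp-like cells. Unlike Hspd1 it was thus also frequent in DN-like and CD8sp-like cells. In cells of 2000 to 3500 steps Hspe1 was found in 75.0% (56.6 to 88.5) of the DN-like, 60.0% (26.2 to 87.8) of the ISP-like and 69.8% of the CD8sp-like cells, so the ISP-like class was not the highest there. Both genes have a promoter window that holds the heat shock motif shown above. After thinning, Hspe1 was found in 74.7% of the 87 ISP-like cells with Hspd1 and in 67.6% of the 105 without it. Without thinning Hspd1 was found in 92.2% and Hspe1 in 98.4% of the ISP-like cells. The thinned shares therefore cannot show how far the 2 genes go together in a cell. Hspa9, the mitochondrial Hsp70 that pulls proteins through the inner membrane, was found in 16.7% of the DN-like, 28.1% (21.9 to 35.1) of the ISP-like, 9.57% of the DPbla-like and 8.49% of the DPre-like cells, within the background range in all but ISP-like cells. In cells of 2000 to 3500 steps it was found in 20.0% (2.52 to 55.6) of the ISP-like and 19.5% of the DPbla-like cells, shares that lie within that range.

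Dnajc15 and Dnajc19, J-proteins of the same import motor, differed from each other. Dnajc15 was found in 17.9% (10.2 to 28.3) of the DN-like, 38.5% of the ISP-like, 46.9% of the DPbla-like, 56.8% (52.0 to 61.6) of the DPre-like, 35.2% (27.9 to 43.1) of the DPsel-like, 22.1% of the CD4sp-like and 31.3% of the CD8sp-like cells. The DN-like share in cells of 2000 to 3500 steps was 3.12% (0.0791 to 16.2). Dnajc15 thus had its high point in DPre-like cells, the class in which Hspd1 and Hspa9 were found least often. Dnajc19 was found in 8.97% of the DN-like, 29.7% of the ISP-like and 14.6% to 24.1% of later thymocytes. The 6 mitochondrial genes summed to 1.58 steps per DN-like cell and 3.24 per ISP-like cell, 2.06 (1.69 to 2.52) times as many, and to 1.51 to 1.93 in later thymocytes.

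The endoplasmic reticulum genes went another way. Their 8 members summed to 0.667 steps per DN-like and 0.708 per ISP-like cell, to 0.947 to 1.02 in the 5 later thymocyte classes, and to 1.67 in the APC-like cells. Dnajc3, which limits the stress kinase response and assists Hspa5, was found in 10.3% of the DN-like, 12.5% (8.18 to 18.0) of the ISP-like, 25.1% (21.5 to 29.0) of the DPbla-like, 32.5% (28.1 to 37.2) of the DPre-like, 27.2% of the DPsel-like, 19.0% of the CD4sp-like and 20.0% of the CD8sp-like cells. Its level was 0.130 steps per ISP-like and 0.287 per DPbla-like cell. Hsp90b1, which folds integrins and Toll-like receptors, lay between 12.5% and 22.3% in thymocytes and at 47.2% (30.4 to 64.5) in the APC-like cells. At 2000 to 3500 steps it was found in 9.38% of the DN-like and 30.0% (6.67 to 65.2) of the ISP-like cells. Hspa5 lay between 5.90% and 13.7% in thymocytes and at 30.6% (16.3 to 48.1) in the APC-like cells, so its thymocyte shares lie within the background range. Dnajb11, a partner of Hspa5, also lay within it, between 6.41% and 14%, with 22.2% in the APC-like cells. Of the 3 genes with the stress element, Hspa5 and Hsp90b1 were thus found most often in APC-like cells. Dnajc3 was found in 19.4% (8.19 to 36.0) of the APC-like cells, a lower share than in DPre-like cells. In the NCL-like cells Hsp90b1 was found in 35.5% (19.2 to 54.6) and Hspa5 in 19.4% (7.45 to 37.5). These intervals overlap those of the APC-like cells.

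Hspb11, a small heat shock gene by name whose protein works in ciliary transport, was found in 7.69% of the DN-like, 15.1% of the ISP-like, 25.9% of the DPbla-like, 32.1% (27.7 to 36.8) of the DPre-like, 16.7% (11.3 to 23.3) of the DPsel-like, 9.73% of the CD4sp-like and 14.7% of the CD8sp-like cells. Its order of classes resembles that of Dnajc15, with the high point of both in DPre-like cells.

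**Figure D3:**
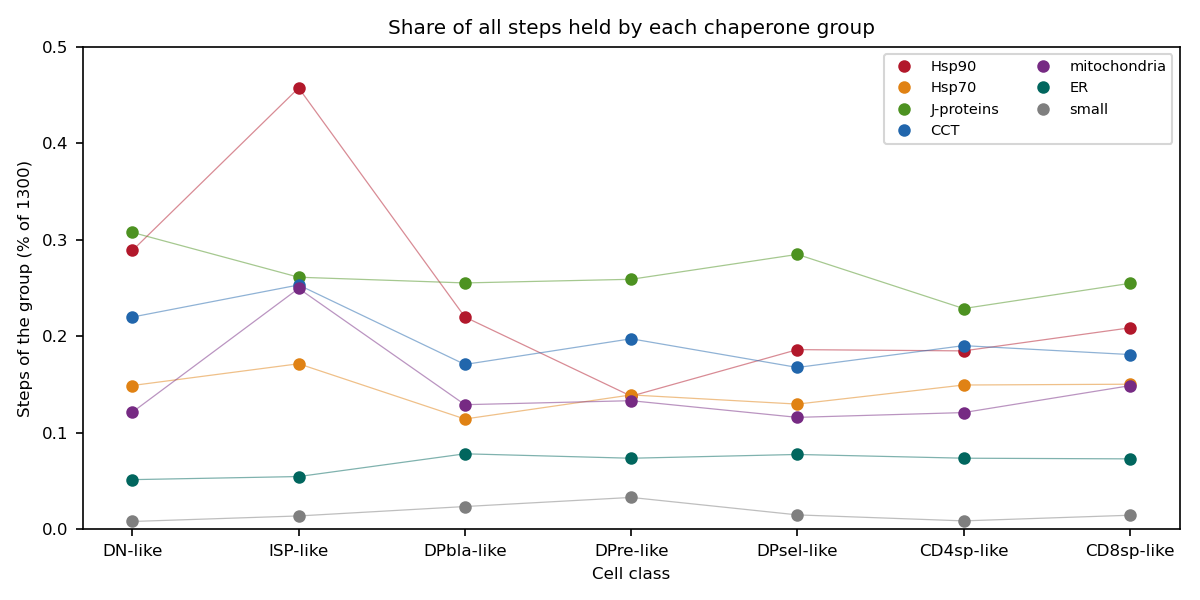
Share of all steps (percent) held by each group of chaperone genes in the 7 thymocyte classes after thinning, 1 line per group. The Hsp90 and mitochondrial lines peak in ISP-like cells, while the line of the endoplasmic reticulum is lowest in DN-like cells.

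Across all 56 genes, chaperones held 1.15% of steps in DN-like, 1.47% in the ISP-like, 0.997% in the DPbla-like, 0.978% in the DPre-like, 0.979% in the DPsel-like, 0.961% in the CD4sp-like and 1.04% in the CD8sp-like cells. Without thinning these were 1.12%, 1.47%, 1.01%, 0.967%, 0.980%, 0.970% and 1.05%, so the thinning did not set the order of the first 3 classes. Of the 31 genes found in at least 10% of cells as the mean of the 7 classes, 12 had their highest level in ISP-like cells, 5 in the DPbla-like, 4 each in DN-like and DPre-like, and 2 each in the remaining classes. Over all 2493 genes of that level 23.3% were highest in ISP-like cells, 10.7% in the DPbla-like, 16.7% in the DN-like, 16.5% in the DPre-like, 14.6% in the DPsel-like, 9.35% in the CD4sp-like and 8.90% in the CD8sp-like cells.

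Neighboring classes were then compared gene by gene. A gene counted as past the limit where its mean level differed by at least 1.5-fold, a size and not a test. From DN-like to ISP-like cells, 16 of the 39 chaperone genes (41.0%) were higher past the limit, against 23.9% of all 4585 genes, and 6 (15.4%) were lower, against 29.7%. The median log2 fold was 0.48 over the chaperone genes and -0.06 over all genes. With another random thinning the count was 18 of 41 (43.9% against 23.5%), and without thinning 18 of 53 (34.0% against 20.2%).

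The largest were Hspd1, 4.83-fold (2.54 to 10.3) higher in ISP-like cells, Hsp90aa1, 3.85-fold (2.72 to 5.59), and the import protein Dnajc19, 3.77-fold (1.73 to 9.75). Dnajc15 was 2.79-fold (1.62 to 5.16) and Cct8 2.51-fold (1.47 to 4.57) higher. Dnajc19 did not stay past the limit under every setting, with a log2 fold of 1.92 that became 0.42 under another thinning, 0.73 at 1000 steps and 0.70 without thinning. The genes that stayed past it under these 3 settings were Cct8, Dnajc15, Dnajc2, Dnajc24, Hsp90aa1, Hspa14, Hspa9, Hspb11 and Hspd1, 9 of the 16. Of these, Dnajc24, Hspa14 and Hspb11 had shares within or under the background range in both classes. Hspa14 changed direction in cells of 2000 to 3500 steps, with a log2 fold of -0.32. Dnajc7 was 4.57-fold (3.20 to 6.61) and Dnajc5 3.01-fold (1.54 to 5.95) lower in ISP-like cells, and they were the 2 of 6 lower genes that stayed. Dnajb4, Dnajc10 and Hspa4l were 3.94-fold, 2.15-fold and 2.11-fold lower, but their shares lay within or under the background range, and Dnajb4 and Dnajc10 changed direction when cells were thinned to 1000 steps.

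From ISP-like to DPbla-like cells, 13 of 39 (33.3%) were lower past the limit, against 14.8% of all genes, and 8 (20.5%) were higher, against 18.3%, which is near the background. The lower count depended on the draw. Another random thinning gave 8 of 41 (19.5% against 15.4%), and no thinning gave 13 of 53 (24.5% against 13.9%). The 8 that stayed past the limit in all of these were Cct3, Cct6a, Hsp90aa1, Hsp90ab1, Hspa8, Hspa9, Hspd1 and Hspe1. They include the Hsp60 chamber with its lid, both Hsp90 genes and the 2 Hsp70 genes Hspa8 and Hspa9.

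Hspd1 was 3.44-fold (2.61 to 4.55), Hspa9 3.35-fold (2.29 to 4.92) and Hspe1 2.67-fold (2.24 to 3.17) lower in DPbla-like cells. Dnajc21, a J-protein of ribosome assembly, was 2.57-fold lower, with shares within the background range, but changed direction at 1000 steps, and Cct3 2.17-fold (1.57 to 2.99). Hsp90ab1 was 2.14-fold (1.95 to 2.35) and Hsp90aa1 1.95-fold (1.69 to 2.25) lower. Of the higher genes, Dnajc3 at 2.20-fold (1.44 to 3.51) and Hspa4l at 1.75-fold (0.764 to 4.68) stayed past the limit, the latter with shares under the background range and an interval that includes no difference. Dnajb4, Dnajc1, Dnajc5 and Dnajc10 were 2.45-fold, 2.00-fold, 1.90-fold and 1.80-fold higher, with shares within or under the background range and not under every draw, and Dnajc10 was lower at 1000 steps.

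**Figure D4:**
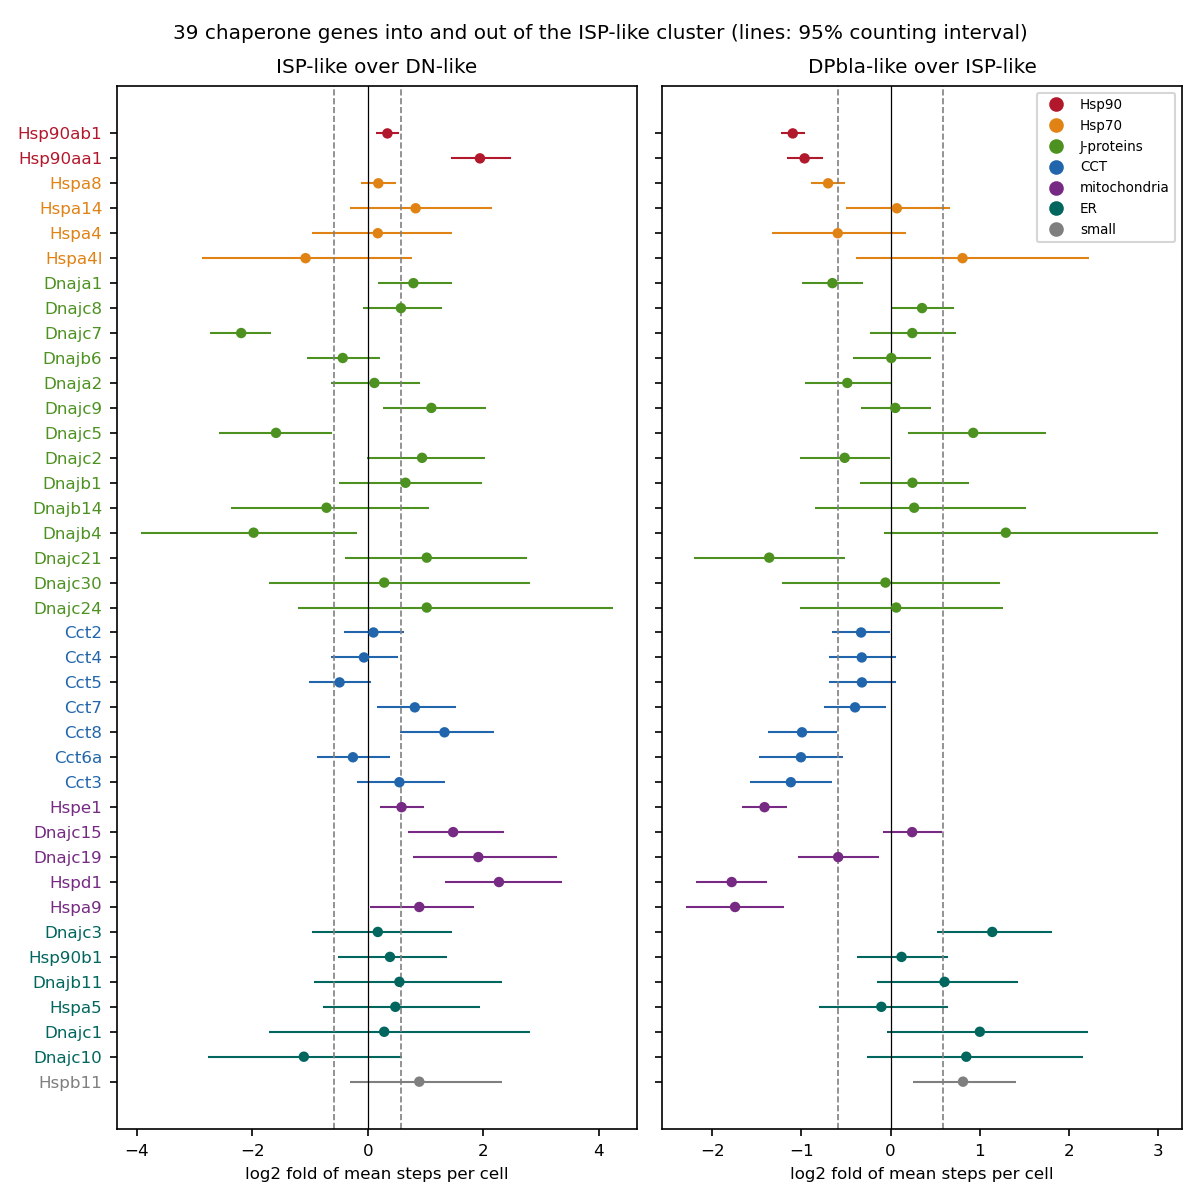
The log2 fold of mean steps per cell (horizontal axis) for the 39 chaperone genes that passed the filter, ISP-like over DN-like and DPbla-like over ISP-like, with points for the fold and lines for its 95% counting interval. Hspd1 lies far to the right in the first panel and far to the left in the second, at 4.83-fold higher and 3.44-fold lower.

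The ISP-like class rests on 1 cluster, and its size moved with the clustering. It held 94 cells with 20 neighbors, 98 with the chaperone genes kept among the variable genes, 187 with 30 components and 297 at a resolution of 1. Hspd1, Hspe1, Hsp90aa1, Hsp90ab1 and Cct6a stayed past the limit between ISP-like and DPbla-like cells by 1.5-fold under every alternative that changed the cells, the clustering or the scale. Against a limit of 2-fold Hsp90aa1, at 1.95-fold, was not past it. The log2 difference of Hspd1 ranged from -1.94 to -0.94.

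From DPbla-like to DPre-like cells, 6 genes (15.4%) were lower, against 15.0% of all genes, and 6 (15.4%) higher, against 26.7%. Chaperone genes were thus lower about as often as genes in general. The lower ones were Dnajc9 (4.46-fold), Hsp90aa1, 2.54-fold (2.11 to 3.07), Hspa5 (1.97-fold), Hspa14 (1.89-fold), Hsp90b1 (1.83-fold) and Hspd1 (1.82-fold), and all but Hspa5 stayed past the limit in every draw. The shares of Hspa5, Hspa14 and Hspd1 lay within the background range in both classes. The higher ones were led by Dnajc7, 1.94-fold (1.59 to 2.39), and Dnajc7, Dnajc15 and Cct4 stayed.

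From DPre-like to DPsel-like cells, 10 genes (25.6%) were higher, against 16.4%, and 4 (10.3%) lower, against 15.5%. The median log2 fold was 0.26 over the chaperone genes and 0.01 over all genes. After Hspa4l came Hspa5 (1.88-fold), Cct3 (1.83-fold), Dnajc19 (1.69-fold) and Dnajb14 (1.62-fold), with the shares of Hspa5 and Dnajb14 within the background range. Of the 10, Cct3, Dnaja1, Dnajc19, Hspa4l and Hspa5 stayed past the limit in every draw, and without thinning the members' share was 13.2% against 16.8%. Dnajc15 was 2.26-fold (1.75 to 2.95), Hspb11 2.33-fold (1.57 to 3.58) and Dnajc7 1.76-fold lower, and all 3 stayed.

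From DPsel-like to single-positive cells, 7 genes (17.9%) were higher, against 14.3%, and 5 (12.8%) lower, against 17.6%, both near the background. Cct6a was 2.18-fold (1.47 to 3.35), Dnajc9 1.72-fold, Cct8 1.57-fold and Hspe1 1.54-fold higher. Only Dnajc9 of these stayed past the limit in every draw, and Hspa4l and Dnajc3 of the lower ones. With the unnamed cluster put in the DPsel-like class the counts were 2 higher and 1 lower. Between the single-positive classes, 4 genes (10.3%) were higher in CD8sp-like cells, against 13.4%, and 4 (10.3%) lower, against 12.7%. Of these 8, Cct6a, 1.74-fold (1.21 to 2.54) lower in CD8sp-like cells, was the one that stayed.

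Partner genes were taken from lists of their roles. Their counts and folds are given for 1 random thinning only, without the other settings used for the chaperone genes. Of 20 co-chaperones of Hsp70 and Hsp90, 19 were in the table and 16 passed the filter. From DN-like to ISP-like cells 10 of the 16 were higher, where 23.9% of all genes were, and 1, Fkbp5, was lower, where 29.7% were. Ptges3, the p23 protein that holds Hsp90 closed on its client, was found in 12.8% of the DN-like and 45.8% of the ISP-like cells, 4.28-fold (2.31 to 8.82) higher. Stip1, which hands clients from Hsp70 to Hsp90, was 3.17-fold higher, with shares within the background range, and Fkbp4 2.37-fold higher. From ISP-like to DPbla-like cells 5 of the 16 were lower, against 14.8% of all genes, and 0 higher, against 18.3%. From DPbla-like to DPre-like cells 3 were lower, against 15.0%, Stip1 by 3.54-fold, and 3 higher, against 26.7%.

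The other lists were shorter. Prefoldin, which delivers actin and tubulin to CCT, passed with 6 of 6 genes, of which Pfdn4 alone was higher past the limit in ISP-like than in DN-like cells, at 2.07-fold (1.04 to 4.58), against 23.9% of all genes. Pfdn1, Pfdn2, Pfdn6 and Vbp1 were 1.48-fold, 1.26-fold, 1.496-fold and 1.31-fold higher, Pfdn5 had 0.676 times the DN-like level, and the median log2 fold of the 6 was 0.48. Of 4 mitochondrial partners that passed, Trap1, Clpp and Grpel1 were 2.78-fold, 2.30-fold and 1.54-fold lower in DPbla-like than in ISP-like cells, where 14.8% of all genes were lower, with the shares of Trap1 and Clpp within or under the background range. Their median log2 fold there was -0.91, against -0.40 for the co-chaperones. Of 10 folding genes of the endoplasmic reticulum, 3 were higher from DN-like to ISP-like cells, close to the 23.9% of all genes. Of the same 10, 1, Xbp1, was lower, where 29.7% of all genes were. The heat shock factors Hsf1 and Hsf2 were found in 0.617% to 4.42% of cells, too few to compare.

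Immediate early genes, which rise when tissue is taken apart, were summed over 9 genes for comparison with the heat shock genes. Their level was 1.04 steps per DN-like, 0.703 per ISP-like, 1.36 per DPbla-like, 2.64 per DPre-like, 2.31 per DPsel-like, 2.38 per CD4sp-like and 1.93 per CD8sp-like cell. It was thus lowest in the ISP-like class. Egr1, part of this sum, was also among the markers used for the DPsel class. Whether the handling of the tissue had a part in these levels or in the chaperone sums was not tested.

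The DPbla-like class held 5 clusters at different points of the cell cycle by their leading genes. In cluster 8, led by Ung and Ccne2 of the start of DNA synthesis, Dnajc9 was found in 39.3% of 112 cells. In cluster 3, led by histone genes, it was found in 43.1% of 181 cells, and in clusters 9, 12 and 11, led among others by Cdc25c, Cdc20 and Ccnb2 of the approach to and passage through mitosis, in 25.5%, 16.7% and 18.9%. Histone genes were also among the leading genes of cluster 9 (Hist1h3d, Hist1h2ab, Hist1h2ae and Hist1h2ac) and of cluster 11 (Hist1h2bc). Dnajc9 was thus found most often in clusters 8 and 3, but not in every cluster with leading histone genes. Hsp90aa1 was found in 54.5%, 69.6%, 57.4%, 33.3% and 41.9% of the same clusters in the same order.

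Hspa8 and Hsp90b1 were ordered differently over these clusters. Hspa8 was found in 82.1% of cluster 8, 52.5% of cluster 3, 56.4% of cluster 9, 66.7% of cluster 12 and 73.0% of cluster 11. Hsp90b1 was found in 10.7%, 17.1%, 28.7%, 30.6% and 36.5%. The chaperone sum was 15.5 steps per cell in cluster 8, 12.9 in cluster 3, 10.9 in clusters 9 and 12, and 14 in cluster 11.

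**Figure D5:**
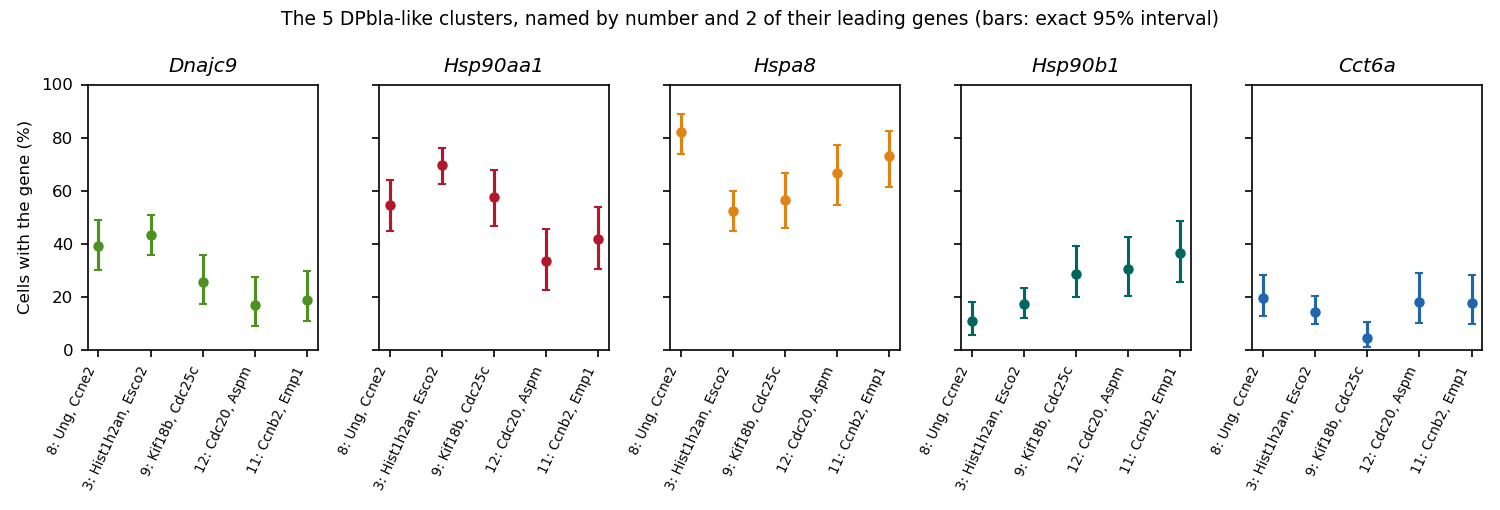
Share of cells with the gene (percent) in the 5 DPbla-like clusters, named by number and leading genes, with points for the cluster and bars for the exact binomial 95% interval. Hsp90b1 goes from 10.7% in cluster 8 to 36.5% in cluster 11, while Dnajc9 is highest in cluster 3 at 43.1%.

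Other classes made of several clusters also held differences. The CD4sp-like class joined cluster 6, with 160 cells, and cluster 13, led by Tnfrsf9, a gene of activated T cells, with 66. No CD4sp marker was among the leading genes of cluster 13, which took its class by marker score. Hspd1 was found in 13.1% of cluster 6 and 25.8% of cluster 13, Hspa5 in 10.0% and 22.7%, and Dnajc2 in 7.5% and 27.3%. The chaperone sum was 11.7 and 14.4 steps per cell. In the DPre-like class it was 13.4 in cluster 0 and 11.8 in cluster 2.

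Genes with the most similar pattern were looked up for Hspa8, Hspd1 and Cct5 by Pearson correlation over the 7 class means, among 4585 genes. These are descriptions over 7 points that share 1 library. Hspd1 was nearest to Cox7b (0.99), Fabp5 (0.99), Eif2b1 (0.98), Eif2s2 (0.98) and Mrps28 (0.98), 2 of them translation initiation factors. Cct5 was nearest to Toporsos (0.99) and Zmiz1 (0.97), and Hspa8 to Mrpl44 (0.96) and Abhd11 (0.94).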

How the data were processed

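The sample was 1 droplet library of mouse thymus cells. The authors aligned its reads with Cell Ranger 1.3.1 (named in the submitters' processing notes) to GRCm38.p5, filtered cells and genes and normalized by quantiles, and the deposited values are on a log2 scale with zeros kept. Counts were not used here. Each cell's distinct values were ranked into steps; steps equal counts only while no count is skipped, so they understate high genes. No cell had under 1300 steps. Cells were clustered in Seurat 5.3.0 (R 4.3.3, data.table in version 1.17.8, Matrix 1.6.5) on 1293 variable genes (mean 0.025 to 3, dispersion above 0.5, 13 chaperone genes removed from 1306) with 20 components, 30 neighbors and a resolution of 2. Clusters took the class with the highest marker score, dividing cells where Mki67 was found in 50% of cells, and stayed unnamed where 10 leading genes held more markers of another class. Steps per cell were thinned to 1300 (1000 as an alternative). Genes were kept at a mean share of 5% and named at 10%, with Hspa5, Hsph1 and Dnajb1 named at any level and the 5 largest folds of each comparison added. Shares have exact binomial intervals and folds have intervals conditional on the summed steps, both at 95%. Doublets were not called; an alternative left out 102 cells. Python 3.11.15, numpy 2.4.6, scipy 1.17.1, pandas 2.3.3 and matplotlib 3.10.9 were used. The thinning and fold steps were also run on simulated steps, for the DPbla-like over ISP-like comparison alone, with the outcome not given here. Positions and promoter windows came from RefSeq on GRCm38.p6. The genes, lists and comparisons were chosen with earlier results of these data known, and the motifs, the rule on unnamed clusters and the set of genes past the limit in every draw were chosen after the data had been seen. Chromatin accessibility data of the series were not used here.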

Additional observations from a re-analysis of the deposited data

How the results depend on the processing

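No paired analysis was possible because there was 1 library. For the 89 gene differences past 1.5-fold under 16 alternatives, 2 of them chosen after seeing the data, 90 values moved outside their counting interval and 15 changed direction, the others stayed within it, and 33 of the 89 stayed past the limit in every alternative other than the depth-matched cells and the log2 difference. Depth limits the ISP-like class most, with 10 cells in the matched range. Resolution 1 left no CD8sp-like class, so that comparison had no value there, and group sums have no value as a log2 difference. The causes were not tested.

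Counts of genes are given as higher, then lower, out of the genes that passed the filter under each setting. These were 41 with another draw, 36 at 1000 steps, 53 without thinning, 56 with no filter, 39 in the depth-matched cells, for the log2 difference, the fold of 2 and 30 components, 41 with chaperone genes among the variable genes and with the unnamed cluster kept, 40 at resolution 1 and 42 with 20 neighbors. Shares over all genes were computed for another draw and without thinning. With another random draw, 8 were lower in DPbla-like than in ISP-like cells (19.5% against 15.4% of all genes) and 2 lower in CD8sp-like than in CD4sp-like cells (4.88% against 12.8%), and Dnajb11 from ISP-like to DPbla-like cells (log2 -0.052) and Dnajc10 between CD8sp-like and CD4sp-like cells (-0.12) changed direction. Thinned to 1000 steps, 3 were lower from DN-like to ISP-like, 3 higher from ISP-like to DPbla-like and 2 higher from DPsel-like to single-positive cells, and Dnaja1 (-0.15), Dnajb4 (0.12), Dnajc10 (1.70) and Dnajc21 (-0.56) from DN-like to ISP-like and Dnajc10 (-1.30) and Dnajc21 (0.012) from ISP-like to DPbla-like cells changed direction. Without thinning, 10 were lower from DN-like to ISP-like (18.9% against 30.3%), 5 higher from ISP-like to DPbla-like (9.43% against 13.4%), 8 lower from DPre-like to DPsel-like (15.1% against 18.2%) and 7 higher in CD8sp-like cells (13.2% against 13.5%), where Dnajc21 changed direction (0.087). In cells of 2000 to 3500 steps, DPbla-like over ISP-like sums were 0.590 for CCT, 0.378 for Hsp90, 0.758 for Hsp70 and Hsp110 and 1.24 for all 32 J-domain genes, 7 genes were higher in CD8sp-like cells, and Cct8 from DPsel-like to single-positive (-0.15), Hspa14 (-0.32) and Dnajb14 (0.68) from DN-like to ISP-like and Hspb11 from ISP-like to DPbla-like (-0.44) changed direction. As a difference of the deposited log2 values, which leave depth in, the 6 comparisons in stage order gave 6 and 1, 0 and 6, 0 and 3, 0 and 0, 1 and 0, and 0 and 0, with Dnajc21 changing direction in CD8sp-like cells (0.0090). With a fold of 2, 8 were higher from DN-like to ISP-like, and the later comparisons gave 3 and 7, 0 and 2, 1 and 2, 1 and 1, and 0 and 1. With no filter on low values, 15 were lower from DN-like to ISP-like, 13 higher from DPbla-like to DPre-like, 8 lower from DPre-like to DPsel-like, 12 and 9 from DPsel-like to single-positive, and 11 and 8 between CD8sp-like and CD4sp-like cells.

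With chaperone genes among the variable genes, the Hsp70 and Hsp110 sum of DPbla-like over ISP-like cells was 0.587 and 4 genes were higher from DPsel-like to single-positive. At a resolution of 1 that sum was 0.554, 5 genes were higher from ISP-like to DPbla-like, 3 lower from DPsel-like to single-positive, and Dnajb11 changed direction (-0.35). With 20 neighbors, and likewise with the unnamed cluster kept in its best class, 2 were higher and 1 lower from DPsel-like to single-positive. With 30 components 2 were higher in CD8sp-like cells.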
